A study of Mus musculus with 29 samples.

Results

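Nicotinamide riboside (NR), a vitamin form of niacin that cells turn into NAD, was set against vehicle in the atria of NaV1.5 transgenic male mice fed a high-fat diet. The comparison was chosen by the labels and holds 12 of the 29 libraries of the series: 5 of vehicle, all of batch 3, and 7 of NR. Batch 3 also holds NR replicates 6 and 7, whereas batch 2 holds NR replicates 1 to 5. Each mouse group carried the NaV1.5 transgene and received the high-fat diet for 4 weeks beginning at 5 weeks of age, with vehicle or with NR. What drives the transgene, the NR dose and its route are not given in the sources used here. RNA sequencing of poly-A selected RNA was done on whole atria, so fewer cells of a type and less RNA per cell cannot be told apart. The labels do not say that the libraries came from separate mice, so a p-value reflects the spread between libraries, which may be technical.

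NAD is the electron carrier of glycolysis, the citric acid cycle and beta-oxidation, and it is used up as a substrate by sirtuins, PARP enzymes and CD38. NR enters cells through equilibrative nucleoside transporters, is phosphorylated by the kinases NMRK1 and NMRK2, and is joined to an adenylyl group by NMNAT enzymes. NAMPT recycles nicotinamide into the same pathway, and in heart muscle this salvage route supplies most NAD.

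Vehicle is found in batch 3 alone, so only NR replicates 6 and 7 can be compared with it free of batch. The labels do not say what a batch is. In NR of batch 2 against vehicle, treatment and batch cannot be told apart. Total counts per library ran from 13189995 to 29177180, and the first principal component, with 51.51% of the variance, separated the 5 batch 2 libraries (scores 49.24 to 61.50) from the 7 of batch 3 (-46.96 to -31.83). Atrial muscle markers were abundant: Nppa, the atrial natriuretic peptide, lay at 7346 to 18830 CPM, which are TMM-scaled counts relative to library size, over the 12 libraries. Of the lung epithelium and thyroid markers, 9 of 10 and 4 of 5 were below the low-count filter. Those measured were Hopx of the lung list, at 85.24 to 127.3 CPM over the 12 libraries, and Tg, thyroglobulin, at 2.613 to 7.445 CPM. Both were lower in NR of batch 3 at an unadjusted p under 0.05 (log2 -0.32 and -0.46, edgeR) and did not pass.

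NR replicates 6 and 7 differed in markers of other cell types. Myl2, the ventricular myosin light chain, was at 327.5 CPM in replicate 7, at 0.727 CPM in replicate 6 and at 0.540 to 7.47 CPM in vehicle, with 148.9 CPM in NR replicate 2 of batch 2. Upk3b, a mesothelial gene, was at 302.8 CPM in replicate 7, 143 CPM in replicate 6, 146 to 195 CPM in vehicle and 645.8 to 958.5 CPM in NR of batch 2. Replicate 7 was thus above the other batch 3 libraries in both genes, and NR of batch 2 was higher still in Upk3b. The 8 measured ventricular markers, Myl2 among them, had a median log2 difference of 0.11 in batch 3, and 0.15 without replicate 6. Summed with Myl2, they were at 1220 CPM in replicate 7, 730.1 CPM in replicate 6, 679.3 to 961.1 CPM in vehicle and 428.8 to 663.9 CPM in NR of batch 2. Summed mesothelial markers were at 825.1, 405.4, 408.1 to 567.5 and 1844 to 2711 CPM in the same order. The fat cell hormone Adipoq was at 4.50 CPM in replicate 7, 0 in replicate 6, 0.0476 to 2.23 CPM in vehicle and up to 24.0 CPM in NR of batch 2. Summed white adipocyte markers in replicate 7, at 707.0 CPM, lay inside the vehicle range of 593.3 to 845.6 CPM. The sum follows its most abundant members, Plin4 (82.59 to 518.6 CPM over the 12 libraries) and Pnpla2 (77.41 to 281.9 CPM). Gene by gene, the median log2 difference of the 12 markers was 1.11 in batch 3, 1.97 without replicate 6 and -1.2 without replicate 7. In NR of batch 2, 9 of the 12 were higher and 3 lower than vehicle, where 28.8% and 28.2% of all genes were. The sum there was 196.0 to 344.6 CPM. Summed fibroblast markers were at 9257 CPM in replicate 7, 7532 CPM in replicate 6, 6974 to 8016 CPM in vehicle and 6739 to 8271 CPM in NR of batch 2. Their median log2 difference in batch 3 was 0.16, and -0.01 without replicate 7. The part of these cell types in the results was not tested. Beside the batch 3 log2 differences of genes that passed, the value without replicate 7 is given. For Mir703, Gm9522 and Ighv1-43 the counts of each batch 3 library stand in its place. By edgeR, 0 of the 31 passing genes named by rule passed without it.

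Within batch 3, 68 of 17735 genes differed between NR and vehicle at an adjusted p under 0.05 (edgeR quasi-likelihood test, Benjamini-Hochberg): 15 genes were higher in NR, which is 0.0846% of the genes tested, and 53 were lower, which is 0.299%. At an unadjusted p under 0.05 there were 742 higher and 1129 lower genes. The genes that rose include the macrophage receptors Folr2 and Siglec1, the secreted proteins Mgp, Prelp and Serping1, and the small RNA Bc1. Those that fell include Ro60, Lnpk, Lypla1, Mib1 and Hipk3. Without NR replicate 7, 0 genes were higher and 1 lower by the edgeR test, at 1131 genes with an unadjusted p under 0.05. That 1 gene was Col4a6, a basement membrane collagen chain, at 10.02 CPM in replicate 6 and 32.8 CPM in replicate 7 against 23.9 to 30.1 CPM in vehicle. Without NR replicate 6 there were 22 higher and 42 lower genes, of which 35 are among the 68. In both cases a single library stands for NR in batch 3, and it is assumed to vary like the other groups. The fit behind the 68 genes takes its spread from the batch 2 libraries too. With the batch 3 libraries alone, 7 genes were higher and 11 lower, and 12 of these 18 are among the 68. Of the genes named above as rising or falling, Bc1, Ro60, Lnpk and Lypla1 passed in that fit, and the others did not.

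Receptors of macrophages and other immune cells were among the higher genes. Folr2, a folate receptor of resident macrophages, was at 10.6, 14.5, 11.6, 11.9 and 9.21 CPM in the vehicle libraries, at 16.7 and 22.4 CPM in NR replicates 6 and 7, and at 19.96 to 24.04 CPM in NR of batch 2. Both NR groups lay wholly above vehicle. The log2 difference in batch 3 was 0.76 ± 0.14 (SE; adjusted p = 0.0355, edgeR), and 0.54 without replicate 7. For NR of batch 2 it was 0.93 ± 0.11 (adjusted p = 2.5e-06, edgeR). Exons of Folr2 overlap an opposite-strand gene over 63.1% of their length, and counting did not use strand.

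Siglec1 encodes sialoadhesin, a lectin of macrophages that interferon induces. Vehicle libraries had 15.6, 12.99, 15.7, 12.3 and 10.6 CPM, and NR replicates 6 and 7 had 18.01 and 26.4 CPM. The 2 NR libraries of batch 3 were above all 5 of vehicle (log2 difference 0.73 ± 0.15, adjusted p = 0.0446, edgeR; 0.44 without replicate 7). The 5 NR libraries of batch 2, at 11.4 to 12.5 CPM, fell inside the vehicle range, and Siglec1 differed between the NR groups (log2 -0.88 for batch 2 minus batch 3, adjusted p = 0.000118, edgeR).

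Fcgr2b, the inhibitory receptor for immunoglobulin G, was at 13.8 to 19.99 CPM in vehicle, 24.1 and 25.2 CPM in NR of batch 3 and 17.7 to 21.5 CPM in NR of batch 2. Its log2 difference was 0.61 ± 0.12 in batch 3 (adjusted p = 0.0450, edgeR) and 0.28 ± 0.10 for NR of batch 2 (adjusted p = 0.0207, edgeR), where the ranges overlap with vehicle. Il6ra, the receptor chain for interleukin-6, was at 9.59 to 13.5 CPM in vehicle, 18.2 and 19.5 CPM in NR of batch 3, and 15.3 to 21.8 CPM in NR of batch 2. Its log2 difference was 0.70 ± 0.14 in batch 3 and 0.67 ± 0.11 in batch 2, so this gene kept nearly the same size in both NR groups. Arhgdib, a GTPase regulator of blood cells, rose by 0.50 ± 0.09 on the log2 scale in batch 3, from 36.6 ± 1.92 CPM (SD, n = 5) in vehicle to 51.7 ± 3.54 CPM (SD, n = 2), and stood at 80.4 ± 7.62 CPM (SD, n = 5) in NR of batch 2. Without replicate 7 the batch 3 differences were 0.59 for Fcgr2b, 0.66 for Il6ra and 0.43 for Arhgdib.

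Pla2g2d, a secreted phospholipase A2 made by dendritic cells and macrophages, also rose. It was at 2.09, 2.30, 2.23, 1.90 and 1.26 CPM in vehicle, 4.98 and 6.92 CPM in NR of batch 3, and 2.37 to 4.81 CPM in NR of batch 2. The groups did not overlap in either batch. The log2 difference was 1.60 ± 0.26 in batch 3 (adjusted p = 0.0167, edgeR; 1.36 without replicate 7) and 0.93 ± 0.21 in batch 2 (adjusted p = 0.00138, edgeR).

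Of 15 macrophage and monocyte markers, 1 passed in batch 3, Folr2. At an unadjusted p under 0.05 (edgeR) 9 were higher in NR and 0 lower, where 742 and 1129 of all 17735 genes were. The list median log2 difference was 0.36, beside -0.01 over all genes tested. It was 0.49 without replicate 6 and 0.18 without replicate 7. Cd68, a lysosomal protein of macrophages, did not pass: it measured 12.3 to 17.8 CPM in vehicle and 19.9 and 26.4 CPM in NR of batch 3 (log2 0.56 ± 0.13, adjusted p = 0.0835, edgeR). Summed over the list, the level was 794.9 to 991.1 CPM in vehicle, 1059 and 1273 CPM in NR replicates 6 and 7, and 1350 to 1506 CPM in NR of batch 2, so no NR library reached down to vehicle. This list and the interferon, matrix, early-response, ribosomal and channel lists were singled out after their values were seen.

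**Figure D1:**
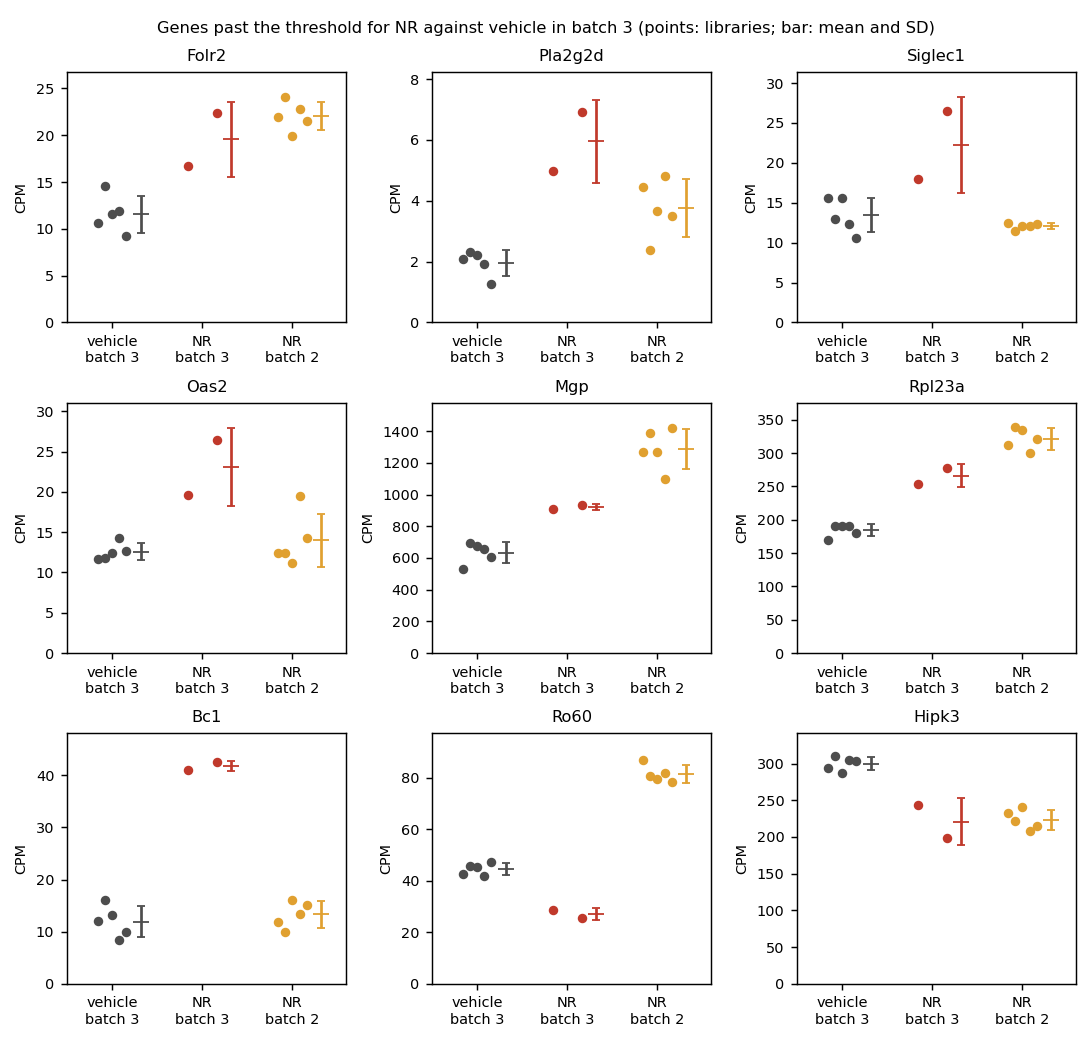
Level in CPM (vertical axes, each from 0) of 9 genes that passed in batch 3, for vehicle, NR of batch 3 and NR of batch 2; each point is a library, and the bar gives mean and SD. Folr2, Pla2g2d, Mgp, Rpl23a and Hipk3 lie on the same side of vehicle in both NR groups, Siglec1, Oas2 and Bc1 stand out in batch 3 alone, and Ro60 is below vehicle in batch 3 (25.3 and 28.6 CPM) and above it in batch 2 (78.4 to 86.9 CPM).

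Interferon genes showed 1 of 33 past the threshold in batch 3, Oas2, which makes the 2-5A signal of antiviral RNA decay. Oas2 was at 11.7, 11.8, 12.4, 14.3 and 12.6 CPM in vehicle, at 19.6 and 26.5 CPM in NR of batch 3, and at 11.1 to 19.5 CPM in NR of batch 2. It was higher in both NR libraries of batch 3 (log2 0.88 ± 0.17, adjusted p = 0.0431, edgeR; 0.65 without replicate 7) and overlapped vehicle in batch 2 (log2 0.14, adjusted p = 0.401, edgeR). The list as a whole followed replicate 7: the summed level was 600.2 CPM in replicate 6 and 906.8 CPM in replicate 7, against 563.1 to 668.2 CPM in vehicle. For NR of batch 2, 22 of the 33 were higher, where 28.8% of all genes were. The batch 3 list median of 0.31 became -0.03 without replicate 7 and 0.49 without replicate 6. Zbp1, a nucleic acid sensor, showed it plainly at 4.62 CPM in replicate 6 and 9.53 CPM in replicate 7, beside 3.90 to 5.70 CPM in vehicle (adjusted p = 0.302, edgeR).

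Mgp, Prelp and Serping1, which encode secreted proteins, also rose. Mgp, the matrix Gla protein that restrains calcification, was at 528.8 to 695.4 CPM in vehicle, 908.6 and 936.5 CPM in NR of batch 3 and 1099 to 1419 CPM in NR of batch 2 (log2 0.54 ± 0.11 in batch 3, adjusted p = 0.0446, edgeR; 1.03 ± 0.09 in batch 2). Prelp, a leucine-rich matrix proteoglycan, was at 61.6 to 78.0 CPM in vehicle against 93.7 and 105 CPM in NR of batch 3 and 93.9 to 126 CPM in NR of batch 2. Serping1, the C1 inhibitor of complement, was at 309 to 376 CPM in vehicle, 459 and 550.1 CPM in NR of batch 3 and 416.1 to 526.5 CPM in NR of batch 2. For these 3 genes no NR library overlapped vehicle. Without replicate 7 the batch 3 differences were 0.53 for Mgp, 0.48 for Prelp and 0.41 for Serping1. By edgeR, DESeq2 and limma-voom 0 of the 42 genes of the matrix list passed in batch 3. At an unadjusted p under 0.05 (edgeR) 6 were higher and 0 lower, where 742 and 1129 of all 17735 genes were. The list median was 0.08, or 0.12 without replicate 7. Fmod, the collagen-binding fibromodulin, came nearest at 0.48 ± 0.16 (adjusted p = 0.256, edgeR; 0.25 without replicate 7).

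Rpl23a, a protein of the large ribosomal subunit, was at 169.5, 191, 191, 191 and 181 CPM in vehicle, 254 and 278 CPM in NR of batch 3, and 299.5 to 339 CPM in NR of batch 2. Each NR library was above each vehicle library (log2 0.53 ± 0.08, adjusted p = 0.00702 in batch 3, 0.47 without replicate 7; 0.80 ± 0.06, adjusted p = 8.9e-09 in batch 2, both edgeR). Over 31-base words, 83.0% of its exon sequence recurs in other annotated genes, so the count is uncertain. Among the 58 cytosolic ribosomal proteins of a list without Rpl23a, 0 passed in batch 3 by edgeR or limma-voom and 2 by DESeq2. At an unadjusted p under 0.05 (edgeR) 7 were higher and 1 lower, where 742 and 1129 of all 17735 genes were. The list median was 0.08, or 0.03 without replicate 7. For NR of batch 2 56 of the 58 were higher than vehicle, with a median of 0.96, where 28.8% of all genes were higher.

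Bc1 had the smallest p among the higher genes. It is a short RNA transcribed by RNA polymerase III that binds translation factors, known above all from neurons. It was at 12, 16.04, 13.2, 8.43 and 9.98 CPM in vehicle, at 41.1 and 42.5 CPM in NR of batch 3, and at 9.87 to 16.2 CPM in NR of batch 2. The 2 NR libraries of batch 3 were alike and far above the rest (log2 1.81 ± 0.20, adjusted p = 0.00362, edgeR; 1.80 without replicate 7, adjusted p = 0.126), while batch 2 overlapped vehicle. Scaled over all 29 libraries, Bc1 was at 36.4 and 36.8 CPM in NR of batch 3, and the batch 1 libraries of the series, which are other groups, spanned 12.5 to 41.3 CPM. The transcript is shown because poly-A selection is part of the protocol and 49 of the 60 bases in capitals, the longest stretch that is at least 80% A, are adenines (GENCODE vM21, GRCm38, chr7:144914470-144914637, plus strand).
Bc1 RNA: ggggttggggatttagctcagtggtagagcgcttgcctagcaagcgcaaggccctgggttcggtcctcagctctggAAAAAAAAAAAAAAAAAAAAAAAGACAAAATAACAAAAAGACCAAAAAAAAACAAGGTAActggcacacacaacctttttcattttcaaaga
Of its 31-base words, 42.0% recur in other annotated transcripts.

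Mir703, the annotated hairpin of a microRNA, was the mirror case. Its raw counts were 19, 26, 11, 23 and 17 in vehicle, 2 and 0 in NR replicates 6 and 7, and 30 to 66 in NR of batch 2. The record was lower than vehicle in batch 3, with a ratio of counts of 0.0492 (95% interval 0.00588 to 0.183, counting error only; adjusted p = 0.00899, edgeR), and higher in batch 2 (log2 0.99, adjusted p = 0.00379, edgeR). A poly-A library does not measure mature microRNAs, and 36.7% of the 31-base words of the record recur in Eef1a1, the translation elongation factor, so these are counts of a locus. Eef1a1 itself was at 3425 CPM in vehicle and 3930 CPM in NR of batch 3 (log2 0.20, adjusted p = 0.423, edgeR). Both sequences are from RefSeq (GRCm38.p6, chr5:98475556-98475664, minus strand), with the mature part in capitals in the hairpin and the seed, bases 2 to 8, in capitals in the mature form.
Mir703 hairpin: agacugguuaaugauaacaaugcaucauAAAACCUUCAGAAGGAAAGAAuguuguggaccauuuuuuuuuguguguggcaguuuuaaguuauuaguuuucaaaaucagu
miR-703: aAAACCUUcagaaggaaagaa

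For Gm9522 and Ighv1-43, vehicle had 0 or 1 counts. Gm9522 is an annotated processed pseudogene (GRCm38, chr15:39180511-39181436, plus strand), and 41.3% of its 31-base words recur in other genes, 17.5% in Gapdh. It had 0 counts in all 5 vehicle libraries, 16 and 30 in NR of batch 3 and 11 to 62 in NR of batch 2. Against the limit of 3 counts over the vehicle group, it was at least 36.2-fold higher in NR of batch 3 and at least 42.7-fold higher in NR of batch 2. The other 17 libraries of the series had 36 to 93 counts, so the vehicle libraries alone were at 0. For this gene, here and among those that hold in batch 2, NR and any other trait of the vehicle libraries cannot be told apart. Both NR contrasts use these 5 vehicle libraries for every gene. The part of any such trait in the other genes called was not tested. Gapdh itself did not pass in batch 3 (log2 0.14 ± 0.11, adjusted p = 0.735, edgeR). Ighv1-43, a variable segment of the immunoglobulin heavy chain, had 22 and 15 counts in NR replicates 6 and 7, 1 count in vehicle replicate 5 and 0 in the other 9 libraries. The ratio of counts in batch 3 was 87.5 (95% interval 14.8 to 3550.0, counting error only; adjusted p = 0.0173, edgeR). Summed B and plasma cell markers were at 135.7 and 86.74 CPM in NR replicates 6 and 7, within the 61.55 to 137.5 CPM range of vehicle. Of its 31-base words, 51.7% recur in other genes, 35.5% in Ighv1-42.

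The genes lower in NR in batch 3 were led by Ro60, which binds Y RNAs and misfolded small RNAs. Ro60 was at 42.4, 45.7, 45.2, 41.8 and 47.4 CPM in vehicle, 28.6 and 25.3 CPM in NR of batch 3, and 78.4 to 86.9 CPM in NR of batch 2. It was thus below vehicle in one batch (log2 -0.72 ± 0.08, adjusted p = 0.00189, edgeR; -0.63 without replicate 7) and above it in the other (log2 0.87 ± 0.06, adjusted p = 2.4e-09, edgeR). Scaled over all 29 libraries, Ro60 was at 21.9 and 25.4 CPM in NR of batch 3 and 37.2 to 42.2 CPM in vehicle. The batch 1 libraries of the series, which are other groups, spanned 14.96 to 26.7 CPM, and the control library of batch 2 was at 21.7 CPM. Lnpk, which stabilises the junctions of the endoplasmic reticulum, was at 15.99 to 17.95 CPM in vehicle and 10.1 and 9.01 CPM in NR of batch 3 (log2 -0.83 ± 0.10, adjusted p = 0.00231, edgeR; -0.74 without replicate 7). The batch 2 NR libraries had 17.2 to 18.8 CPM, inside and just above the vehicle range. Lypla1, which removes palmitate from proteins, was at 64.4 to 73.0 CPM in vehicle and at 47.7 and 35.4 CPM in NR replicates 6 and 7. Its log2 difference was -0.73 ± 0.10 in batch 3, -0.52 without replicate 7, and 0.20 ± 0.07 for NR of batch 2.

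Ligases of ubiquitin and signalling proteins were also among the lower genes. Mib1, the ubiquitin ligase of Notch ligands, was at 88.0 ± 3.08 CPM (SD, n = 5) in vehicle, 63.4 ± 6.49 CPM (SD, n = 2) in NR of batch 3 and 125 ± 3.18 CPM (SD, n = 5) in NR of batch 2. Trim2 (-0.56), another ubiquitin ligase, Yes1 (-0.57), a SRC-family kinase, Arhgap5 (-0.59), a GTPase-activating protein, and Scai (-0.79), a cofactor that holds back MRTF and SRF transcription, were all lower in batch 3. These 4 log2 differences had the opposite sign in batch 2, at 0.33, 0.44, 0.72 and 1.13, and each passed there. Without replicate 7 the batch 3 differences were -0.36 for Mib1, -0.47 for Trim2, -0.54 for Yes1, -0.48 for Arhgap5 and -0.74 for Scai.

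Among genes of lipid and membrane handling, Osbpl8, a lipid carrier between the endoplasmic reticulum and the plasma membrane, was at 90.5 to 100.5 CPM in vehicle and 73.0 and 58.3 CPM in NR of batch 3. The batch 2 NR libraries had 91.6 to 95.9 CPM, within the vehicle range. Impad1, a Golgi phosphatase, was at 97.5 to 106 CPM in vehicle, 77.4 and 67.5 CPM in NR of batch 3 and 116 to 130 CPM in NR of batch 2. Their batch 3 log2 differences were -0.52 and -0.49, and without replicate 7 they were -0.36 and -0.38.

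How far the batch 3 changes hold in batch 2 differed between the directions, although both contrasts use the same 5 vehicle libraries. NR of batch 2 differed from vehicle in 5105 higher genes (28.8% of those tested) and 5010 lower genes (28.2%). NR of batch 2 differed from NR of batch 3, the same treatment, in 4060 higher (22.9%) and 4251 lower genes (24.0%). Of the 15 genes higher in batch 3, 10 were also higher in batch 2, 5 did not pass and 0 passed in the opposite direction. The 10 are Rpl23a, Pla2g2d, Arhgdib, Folr2, Prelp, Serping1, Mgp, Il6ra, Fcgr2b and Gm9522, and the 5 are Bc1, Ighv1-43, Oas2, Siglec1 and the pseudogene Gm2962. When batch 3 libraries alone were fitted, Rpl23a, Pla2g2d and Gm9522 of the 10 passed in batch 3, and the others did not. Of the 53 lower genes, 3 were also lower in batch 2, 37 passed in the opposite direction and 13 did not pass. Judged instead by ranges that do not overlap with vehicle, 9 of the 15 and 3 of the 53 held, where 21.3% and 21.7% of all genes lay wholly above or below. In NR of batch 2, 56 of 58 ribosomal genes were higher than vehicle and 0 lower, where 28.8% of all genes were higher. Macrophage markers had 9 of 15 higher and 0 lower, and matrix genes 9 higher and 9 lower of 42. Of 12 atrial muscle markers 9 were lower and 1 higher. The part of these shifts in the 10 genes that also hold was not tested.

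The 3 genes lower in both batches were Hipk3, Clba1 and Alg10b. These genes did not pass in batch 3 when batch 3 libraries alone were fitted. Hipk3, a homeodomain-interacting kinase, was at 294, 310.1, 287, 305 and 304 CPM in vehicle, 244 and 198 CPM in NR of batch 3, and 208 to 240.3 CPM in NR of batch 2. No NR library reached vehicle (log2 -0.44 ± 0.09, adjusted p = 0.04004 in batch 3; -0.43 ± 0.06, adjusted p = 2.8e-05 in batch 2, both edgeR). Clba1, named for its clathrin-binding box, was at 11.0 to 16.6 CPM in vehicle, 8.51 and 6.83 CPM in NR of batch 3 and 8.48 to 9.62 CPM in NR of batch 2. Alg10b, a glucosyltransferase of the endoplasmic reticulum that also acts on the HERG potassium channel, was at 75.4 to 90.4 CPM in vehicle, 60.1 and 57.4 CPM in NR of batch 3 and 68.8 to 74.8 CPM in NR of batch 2. Without replicate 7 the batch 3 differences were -0.29, -0.62 and -0.42 for Hipk3, Clba1 and Alg10b.

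**Figure D2:**
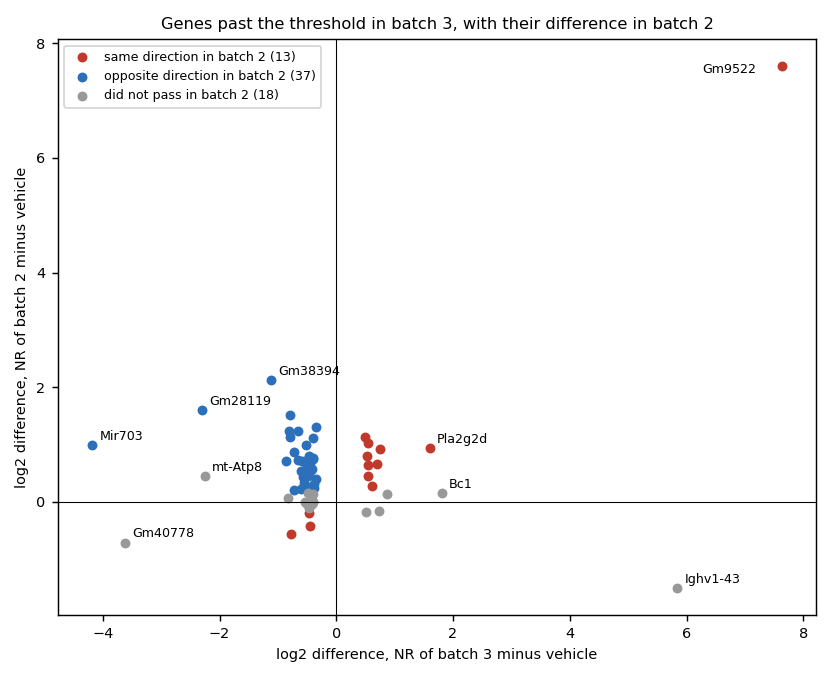
The 68 genes past the threshold in batch 3: log2 difference of NR of batch 3 minus vehicle (horizontal) and of NR of batch 2 minus vehicle (vertical), 1 point a gene, coloured by its result in batch 2. The 15 higher genes lie right of 0 and 10 of them pass above 0, while 37 of the 53 lower genes lie left of 0 and pass above it.

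The number of genes called moved with single libraries of either group. Leaving out vehicle replicates 1, 3, 4 or 5 gave 7, 8, 11 and 4 higher genes and 30, 31, 35 and 23 lower genes. Leaving out NR replicates 2 or 3, which are in batch 2 and inform only the spread, gave 7 and 10 higher and 26 and 33 lower genes. The count that also held in batch 2 went from 10 to 4 without vehicle replicate 1 or 3, 3 without vehicle replicate 5, 4 without NR replicate 2, 6 without NR replicate 3, 17 without NR replicate 6 and 0 without NR replicate 7. For the lower genes it went from 3 to 1 without vehicle replicate 5 or NR replicate 1, 2 or 7, and to 6 without NR replicate 6.

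GC content and length differed between the sets of genes. The 53 lower genes had a median GC content of 39.2%, against 49.4% over all genes tested and 50.4% for the 15 higher genes, and 47 of the 52 with a GC value lay under the lower quartile of all genes, 44.6%. Their median exon length was 8299 bases, against 3839 over all genes and 1707 for the higher genes. Over all genes tested, the median difference varied with GC content: in batch 3 the median log2 difference was -0.45 for the 100 genes under 35% GC and -0.17 for the 1109 genes from 35 to 40%. In NR of batch 2 the same bins had medians of 0.76 and 0.51. With offsets that remove the trend in GC content and length from each library, 6 genes were higher and 7 lower in batch 3, and 12 of these 13 were among the 68. The 6 were Bc1, Gm9522, Rpl23a, Pla2g2d, Ighv1-43 and Cnot4, a ubiquitin ligase of the mRNA deadenylase complex. The 7 were Ro60, Lypla1, Lnpk, Mib1, Mir703, Gm38394 and B230219D22Rik. Ro60 has no GC value and was given the mean offset of each library. Its own GC content and length were thus not corrected, and the offsets do not check this gene. With the offsets Folr2 and Oas2 kept log2 differences of 0.69 and 0.84, with adjusted p of 0.0805 and 0.0920 (edgeR).

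**Figure D3:**
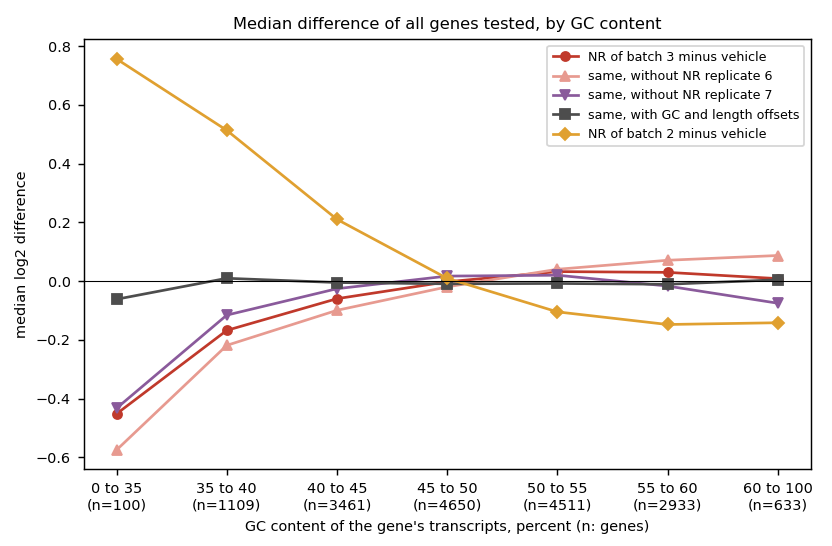
Median log2 difference (vertical) of all genes tested in 7 bins of GC content (horizontal, percent), for NR of batch 3 minus vehicle, the same without NR replicate 6 or 7 or with offsets for GC and length, and NR of batch 2 minus vehicle. Low-GC genes lie below 0 in batch 3 with either library left out (-0.58 and -0.43 in the lowest bin), above 0 in batch 2, and near 0 with the offsets.

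Genes that carry NR into NAD did not pass in batch 3. Nmrk1, the broadly expressed NR kinase, was at 8.58, 6.55, 10.5, 6.19 and 7.84 CPM in vehicle, 7.63 and 8.29 CPM in NR of batch 3 and 8.43 to 10.7 CPM in NR of batch 2. Its log2 difference in batch 3 was 0.01, with a 95% interval from -0.37 to 0.40. Nmrk2, the muscle NR kinase, varied widely within vehicle, at 19.4, 62.9, 16.8, 28.99 and 15.6 CPM, and was at 32.8 and 27.5 CPM in NR of batch 3. Its interval, -1.62 to 1.75, leaves more than a doubling in either direction. Nampt was at 139, 119, 210.5, 133 and 138 CPM in vehicle and at 130.3 and 130 CPM in NR of batch 3 (log2 -0.18, interval -0.68 to 0.32). Nmnat1, the nuclear adenylyltransferase, was at 22.5 to 26.9 CPM in vehicle and 31.2 and 23.4 CPM in NR of batch 3, and Nmnat3, the mitochondrial form, at 13.4 to 18.4 CPM and at 12.8 and 12.3 CPM.

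Of the 13 measured genes of NR uptake and salvage, 0 passed in batch 3 by edgeR, DESeq2 or limma-voom, and 1 had an unadjusted p under 0.05 (edgeR). That gene was Slc29a1, the nucleoside transporter ENT1, at 72.2 to 84.2 CPM in vehicle and 82.9 and 94.9 CPM in NR of batch 3 (log2 0.20 ± 0.09, adjusted p = 0.433, edgeR). The list median was 0.09, and 0.05 without replicate 7. Of the 20 genes of NAD supply and use set out here, 18 had an interval that covers 0, and 14 had one within 0.5 log2 units of 0. In NR of batch 2, 2 of the 13 were higher and 6 lower than vehicle, where 28.8% and 28.2% of all genes were, among them Nmnat1 (log2 -0.80) and Slc29a2 (-1.56), a second nucleoside transporter.

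NAD consumers, the enzymes that use it up, gave 0 of 25 past the threshold in batch 3, 2 higher and 2 lower at an unadjusted p under 0.05, and a median of 0.05. Cd38, the membrane NAD glycohydrolase, was at 24.99, 28.9, 24.4, 27.3 and 26.8 CPM in vehicle and 23.3 and 20.4 CPM in NR of batch 3, below each vehicle library without passing (log2 -0.28 ± 0.09, adjusted p = 0.244, edgeR). Batch 2 NR libraries had 37.9 to 43.0 CPM (log2 0.59 ± 0.07, adjusted p = 1.2e-06, edgeR). Sirt1, a nuclear deacylase, was at 18.7 to 26.6 CPM in vehicle and 22.1 and 22.2 CPM in NR of batch 3 (interval -0.28 to 0.25). Sirt3, its mitochondrial relative, had an interval of -0.21 to 0.12, and Parp1, the main DNA-damage polymerase of ADP-ribose, one of -0.20 to 0.13. Nnmt, which methylates nicotinamide for disposal, was at 3.84 to 4.86 CPM in vehicle and 4.98 and 6.35 CPM in NR of batch 3 (log2 0.35, interval -0.00 to 0.71). The nicotinic acid and tryptophan routes had 0 of 6 past the threshold, and nicotinamide clearance with NADP 0 of 7, with 0 at an unadjusted p under 0.05 in each. For these NAD lists DESeq2 and limma-voom gave 0 as well.

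**Figure D4:**
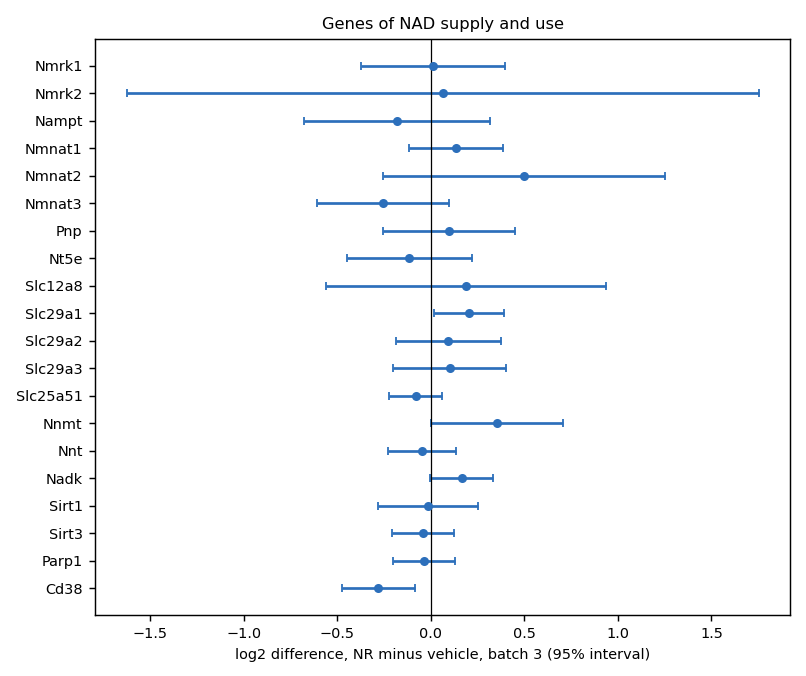
Log2 difference of NR minus vehicle in batch 3 (horizontal) for 20 genes of NAD supply and use (vertical), with 95% intervals from the edgeR fit. All but Slc29a1 (0.01 to 0.39) and Cd38 (-0.48 to -0.09) have intervals that cover 0, and Nmrk2 has the widest.

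Lists of fuel use had no gene past the threshold in batch 3. The citric acid cycle had 0 of 19 (median log2 difference -0.02), fatty acid uptake and oxidation 0 of 25 (0.02), targets of the fatty acid receptor PPAR-alpha 0 of 20 (-0.02) and antioxidant genes 0 of 27 (0.00). Nuclear genes of the respiratory chain had 0 of 63, with a median of -0.00. At an unadjusted p under 0.05 (edgeR) these lists had 0, 2, 3, 2 and 3 genes in the same order. DESeq2 passed 1 fatty acid gene and 1 nuclear respiratory gene, and limma-voom 0 in each list. Nearest to the threshold were Cox6a2, the muscle subunit of cytochrome oxidase, at 753 to 844 CPM in vehicle and 987 and 1142 CPM in NR of batch 3 (log2 0.39 ± 0.09, adjusted p = 0.0715, edgeR), and Etfb, which passes electrons from beta-oxidation. Etfb was at 22.9 to 31.2 CPM in vehicle, 18.6 and 17.9 CPM in NR of batch 3 and 18.2 to 22.9 CPM in NR of batch 2 (log2 -0.57 ± 0.12, adjusted p = 0.0583, edgeR). In NR of batch 2 all 19 cycle genes and all 25 fatty acid genes were lower than vehicle, with medians of -0.89 and -0.88, where 28.2% of all genes were lower and batch cannot be told apart from treatment. Atrial muscle markers were lower there too, 9 of 12 with 1 higher and a median of -0.95, and summed to 31260 to 36600 CPM against 69800 to 81760 CPM in vehicle. Mesothelial markers were higher, 12 of 12, with a median of 2.05, where 28.8% of all genes were higher. The part of these shifts in the fuel genes was not tested.

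Of the 13 mitochondrially encoded genes of the respiratory chain 1 passed in batch 3, mt-Atp8, a small subunit of ATP synthase. Its counts were 302, 267, 213, 268 and 236 in vehicle, 67 and 47 in NR of batch 3 and 257 to 591 in NR of batch 2 (log2 -2.25 ± 0.40, adjusted p = 0.0446, edgeR; -1.95 without replicate 7). Its reading frame overlaps mt-Atp6 over 21.1% of its length, and pairs lying over both genes were not counted. The share of counts from mitochondrially encoded genes was 16.3 ± 1.39% (SD, n = 5) in vehicle, 16.6 ± 2.14% (SD, n = 2) in NR of batch 3 and 17.4 ± 0.702% (SD, n = 5) in NR of batch 2. The batch 3 difference of 0.311 percentage points gave p = 0.667 in a 2-sided exact permutation test, whose smallest possible p is 0.0952.

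Atrial ion channels and connexins had 0 of 34 past the threshold in batch 3, with 1 higher and 2 lower at an unadjusted p under 0.05, and 1 passed by DESeq2. Cacna2d1, a subunit of the L-type calcium channel, was at 116 to 133 CPM in vehicle and 103 and 83.8 CPM in NR of batch 3, below each vehicle library without passing (log2 -0.40 ± 0.09, adjusted p = 0.0715, edgeR). Immediate early genes had 0 of 20 past the threshold by edgeR, DESeq2 or limma-voom. At an unadjusted p under 0.05 (edgeR) 5 were higher and 0 lower, where 742 and 1129 of all 17735 genes were. The median of these early genes, 0.38, became 0.20 without replicate 7. Nr4a1, an orphan nuclear receptor among them, was at 23.4 CPM in replicate 6 and 77.1 CPM in replicate 7, against 12.3 to 36.0 CPM in vehicle.

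**Figure D5:**
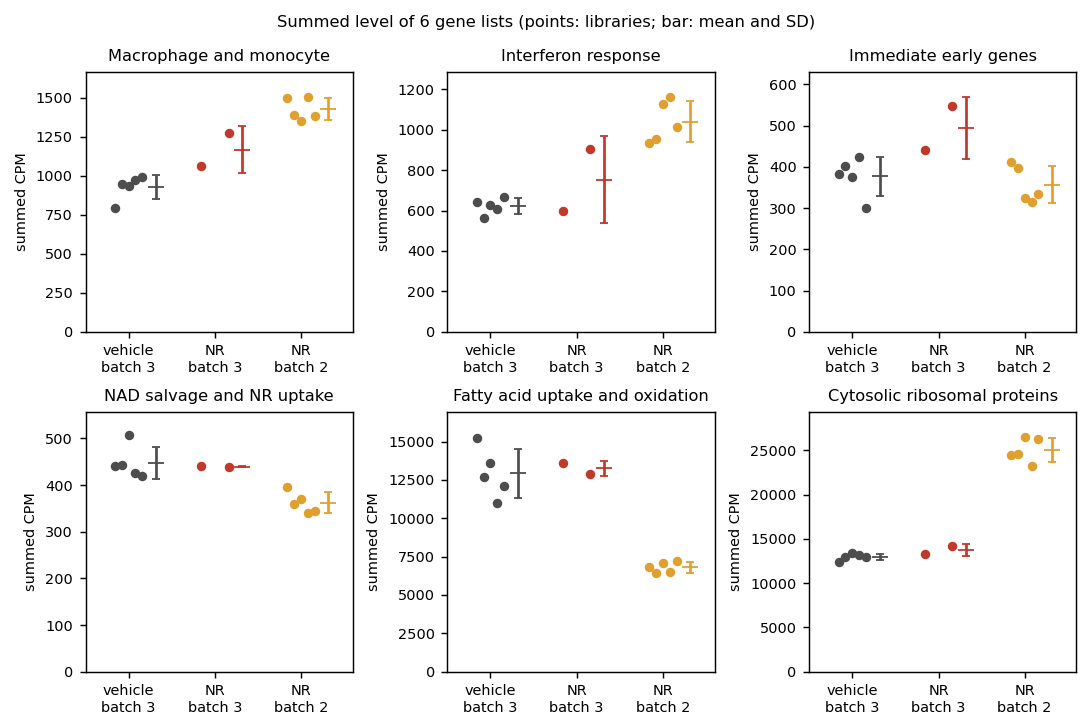
Summed level in CPM (vertical, from 0) of 6 gene lists in vehicle, NR of batch 3 and NR of batch 2; points are libraries, and the bar gives mean and SD. NR replicates 6 and 7 are both above vehicle for macrophage genes (1059 and 1273 CPM), only replicate 7 is for interferon genes (906.8 CPM), and both lie within the vehicle range for NAD salvage and fatty acid oxidation.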

How the data were processed

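The deposited values are counts of read pairs per gene. Per the file headers, featureCounts 2.0.1 made them; the library kit keeps strand, but strand was not used, and pairs mapping to several places or lying over several genes were left out. FastQC 0.11.7 and STAR 2.7.6a stand in the submitters' processing notes, with builds GRCm38 and mm10. Groups, batches and numbers come from the labels.

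The 12 libraries entered 1 edgeR 4.0.16 fit (R 4.3.3; TMM, filterByExpr, robust quasi-likelihood) with 3 cells: vehicle, NR of batch 3 and NR of batch 2. Tests were 2-sided, adjusted over 17735 genes by Benjamini-Hochberg. SE is the absolute log2 difference over the root of F, and intervals use it at 95%. DESeq2 1.42.0, limma 3.58.1, other filters, scalings, sample sets and a replicate block were alternatives. Tests were checked on simulated data. Floors of 3 counts cover counting error only.

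Named genes are the 14 annotated genes per direction with the smallest p in batch 3, up to 10 per direction that also hold in batch 2, the NAD genes, and up to 4 members with the smallest p of each NAD, mitochondrial or metabolic list, or of one with at least 10% of members passing; Gm2962, Gm9522, Gm38394, B230219D22Rik, Col4a6, Cnot4, Eef1a1, Gapdh, Cd68, Zbp1, Fmod, Nr4a1, Cacna2d1 and the markers of other cell types were added after their values were seen. Members and lists were chosen with earlier results of these data known. GC content, exon overlap and shared 31-base words come from GENCODE vM21. Sequences were copied from it and from RefSeq, which held 1 hairpin and 1 mature form for Mir703.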

Additional observations from a re-analysis of the deposited data

Results flagged for a closer look

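Of 264 groups of 4 to 10 values checked, 9 held a library far from the others by Dixon's criterion, which chance gives in about 1 of 20 groups; 3 of the 9 were NR replicate 1. In vehicle, Nmrk2 was 62.91 CPM in replicate 2 (others 15.57 to 28.99), Nampt 210.5 CPM in replicate 3 (119.3 to 138.7), Ndufa3 249.2 CPM in replicate 1 (220.3 to 228.2), Klf2 24.56 CPM in replicate 4 (15.79 to 18.15) and Ighv1-43 0.05484 CPM in replicate 5 (0 in the others). In NR of batch 2, replicate 1 was highest for Gm9522 at 1.982 CPM (others 0.7092 to 1.053) and Nt5e at 29.29 CPM (21.49 to 23.67) and lowest for Rps29 at 471.6 CPM (547.9 to 577.6), and replicate 3 was highest for Fis1 at 108.6 CPM (94.55 to 98.55). NR of batch 3 has 2 libraries and could not be checked in this way.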

How the results depend on the processing

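The counts of 15 higher and 53 lower genes in batch 3 became 7 and 11 with batch 3 libraries alone, 4 and 25 with all 29 libraries in 1 fit, 40 and 100 with no low-count filter, 47 and 187 with DESeq2, 6 and 18 with limma-voom, and 6 and 7 with GC and length offsets, an alternative chosen after seeing the data. With no batch term they were 2398 and 1845. Leaving out 1 library gave 0 to 22 higher and 1 to 44 lower genes. Genes that also held in batch 2 were 2, 27, 27, 3 and 3 of the higher with 29 libraries, no filter, DESeq2, limma-voom and offsets, 0 to 17 with 1 library left out, and 11 and 34 of the lower with no filter and DESeq2, 1 to 6 with 1 library left out.

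With no batch term the sign turned for Ro60 (0.57), Scai (0.79), Mir703 (0.54), Mib1 (0.29), Impad1 (0.0838), Yes1 (0.21), Zfp971 (1.14), Arhgap5 (0.45), Trim2 (0.13) and mt-Atp8 (0.0575); the batch 2 libraries enter NR there. For NR of batch 2 the offsets turned Lypla1 (-0.0932), Impad1 (-0.0793), Yme1l1 (-0.0748) and mt-Atp6 (-0.40); the cause was not tested. With the replicate block, NR of batch 2 against vehicle gave 5012 higher and 4893 lower genes. The numbers did not pair the libraries: correlations of deviations were -0.077 to 0.164, and replicate 3 alone matched its own number best. With NR replicate 7 left out all 31 named genes that had passed missed the threshold in the same direction; with DESeq2 size factors 29 still passed.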

Other observations

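Genes of cell division, a list described after its values were seen, had 0 of 27 past the threshold in batch 3 by edgeR, DESeq2 or limma-voom, and 0 at an unadjusted p under 0.05 (edgeR). Their median log2 difference was -0.58, beside -0.01 over all genes, and it was -0.65 without NR replicate 6 and -0.50 without NR replicate 7. For NR of batch 2 the median was 0.45 on the other side of 0, with 5 genes higher and 0 lower, where 28.8% of all genes were higher and 28.2% lower. Erythroid genes, chiefly globins, had 0 of 9 past the threshold in batch 3 by the same 3 tools and 0 at an unadjusted p under 0.05, with a median of 0.23, while in NR of batch 2 all 9 were higher than vehicle, with a median of 1.45, against 28.8% of all genes.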
